A study of Mus musculus with 7 samples.

Results

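Granzymes are serine proteases that cytotoxic lymphocytes store in secretory granules, and perforin, encoded by Prf1, is the pore-forming protein that lets them enter a target cell. The 10 genes described here are Gzma, Gzmb, Gzmc, Gzmd, Gzme, Gzmf, Gzmg, Gzmk, Gzmm and Prf1, chosen by gene name from the 55357 genes of the deposited expression table. Each name matched 1 row. The libraries were poly(A)-selected RNA-seq of live CD45+ CD8+ T cells sorted from subcutaneous MCA205 tumours, a transplantable mouse fibrosarcoma, 14 days after implantation. 4 samples came from ENT1KO hosts (Slc29a1-/-, replicates 11, 12, 14 and 15) and 3 from C57Bl/6 WT hosts (replicates 1, 2 and 3), all given the same tumour line and no other treatment in the labels. The protocol gives at least 30000 sorted cells per condition and 75 ng of RNA. Slc29a1 encodes ENT1, a membrane transporter of adenosine and related nucleosides. Where several values of a genotype are listed, they follow the order of the replicates just given. The knockout is described for the host mouse as a whole, the animals' age is not given, and no label states whether a sample is 1 animal or a pool. The p-values therefore measure the spread between these samples, which may be partly technical.

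Granzyme B cleaves after aspartate and activates caspases in the target, and granzyme A cleaves after basic residues. Granzyme K is a tryptase like granzyme A and marks less differentiated or memory-type CD8 T cells, and granzyme M is best known from NK cells. Granzymes C to G are rodent relatives of granzyme B, encoded beside it, and are induced late in strongly activated mouse T cells. These roles are background and were not measured here.

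In the deposited coordinates (GRCm39) the genes lie at 4 places. On chromosome 14 the cluster runs in the order Gzme (56355083 to 56358082), Gzmd (56367013 to 56370065), Gzmg (56394039 to 56397036), Gzmf (56442720 to 56448874), Gzmc (56468898 to 56472113) and Gzmb (56496295 to 56499717). Gzma (113230359 to 113237515) and Gzmk (113308142 to 113362442) are neighbours on chromosome 13. Prf1 (61133612 to 61140459) and Gzmm (79524854 to 79531095) lie apart on chromosome 10.

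The promoters of Gzmc to Gzmg are shown because these 5 genes varied together between libraries while Gzmb, the next gene of the cluster, did not. The windows are RefSeq sequence on GRCm38.p6, a build other than that of the expression files, each 100 bases long and on the minus strand. Capitals mark the 8 bases that match, or come closest to, the cAMP response element TGACGTCA.
Gzmc, chr14:56234643-56234742: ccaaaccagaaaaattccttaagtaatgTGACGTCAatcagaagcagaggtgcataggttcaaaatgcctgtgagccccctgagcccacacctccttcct
Gzmf, chr14:56211418-56211517: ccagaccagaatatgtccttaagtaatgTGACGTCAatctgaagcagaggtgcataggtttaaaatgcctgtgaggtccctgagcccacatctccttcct
Gzmg, chr14:56159585-56159684: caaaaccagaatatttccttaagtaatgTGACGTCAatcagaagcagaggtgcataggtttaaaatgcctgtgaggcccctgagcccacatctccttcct
Gzmd, chr14:56132583-56132682: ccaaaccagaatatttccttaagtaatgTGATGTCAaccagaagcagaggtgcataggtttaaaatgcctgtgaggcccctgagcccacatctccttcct
Gzme, chr14:56120616-56120715: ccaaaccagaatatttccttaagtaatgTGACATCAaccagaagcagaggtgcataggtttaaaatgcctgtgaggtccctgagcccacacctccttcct

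The octamer matched exactly in Gzmc, Gzmf and Gzmg. Counted from 1 at its 5′ end, Gzmd differed by C4T and Gzme by G5A. All 5 promoters share the 20-base run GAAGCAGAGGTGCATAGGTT, which none of the other promoters among the 32851 in the table (27025 genes) holds on either strand. When the listed promoters were aligned in pairs, between 86.1% (Gzmc with Gzmd) and 94.0% (Gzmd with Gzme) of the aligned bases were identical. Gaps and overhanging ends were not counted.

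The end of the Gzmb promoter and the first bases after its start site are given because Gzmb was the most abundant member. Capitals mark, from left to right, the RUNX core TGTGGT, the AP-1 site TGAGTCA, the RUNX core again and an octamer that differs from the cAMP response element by T1A.
Gzmb, chr14:56262285-56262434: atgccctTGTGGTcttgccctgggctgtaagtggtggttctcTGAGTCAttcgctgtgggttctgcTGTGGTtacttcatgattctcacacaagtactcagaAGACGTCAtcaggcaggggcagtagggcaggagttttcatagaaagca

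4 motifs were searched on both strands, and they were chosen after the promoters had been read. The element TGACGTCA was in the promoters of Gzmc, Gzmf and Gzmg and in 1.79% of all listed promoters. With at most 1 mismatch it was in those of 6 members, Gzmb to Gzmg, and in 12.5% of all promoters. TGTGGT was in those of 9 members, all but Gzmk, and in 16.8% of all promoters. TGAGTCA was in that of Gzmb and in 5.2% of all promoters, and the T-box element AGGTGTGA was in none of the members and in 1.28% of all. None of these matches overlapped a match of another motif. The matches describe letters in these windows, and binding was not measured.

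Depth was close to equal, at 18624318 to 19635168 gene-assigned reads in ENT1KO and 18632462 to 19660792 in WT libraries. Slc29a1, the targeted gene, was at 13.2 to 17.6 TPM in ENT1KO and 49.7 to 58.9 TPM in WT libraries (log2 difference -1.78, limma-trend adjusted p = 0.00121). TPM is a length-corrected abundance that the authors brought to one common sum per library. The 10 CD8 T cell markers were summed at 8003 to 9996 TPM in ENT1KO and 2503 to 5995 TPM in WT libraries, led by Trac and Trbc2. Fibroblast, tumour and macrophage markers were lower in ENT1KO. The 9 fibroblast and tumour markers, led by Postn and Col3a1, summed to 1.11 to 757 TPM in ENT1KO and 3549 to 6659 TPM in WT libraries. The 8 macrophage markers, led by Lyz2 and Apoe, summed to 101 to 1203 TPM in ENT1KO and 3106 to 4589 TPM in WT libraries. In bulk libraries, fewer cells of a type and less RNA per cell cannot be told apart, and the part of this composition in the differences given next was not tested.

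Per length, Gzmb was the most abundant of the 10 genes in both genotypes. It had 1248, 1406, 966 and 1176 TPM in ENT1KO libraries, against 454, 369.7 and 871 TPM in WT libraries. All ENT1KO libraries were above all WT libraries, and WT replicate 3 stood apart from the other WT libraries. The log2 difference, on the log2(TPM + 1) scale, was 1.17 (SE 0.28; limma-trend adjusted p = 0.0104), and an exact two-sided permutation test gave p = 0.0286, the lowest possible for 4 against 3. For Gzmb the authors' deposited table lists a log2 fold change of 0.95 (adjusted p = 0.00314), and for Prf1 likewise 0.95 (adjusted p = 0.00982).

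Prf1 had 152, 237, 152 and 105 TPM in ENT1KO libraries, against 66.4, 50.9 and 109 TPM in WT libraries. ENT1KO replicate 15 was below WT replicate 3, and the other ENT1KO libraries were above all WT libraries. The log2 difference was 1.10 (SE 0.32; limma-trend adjusted p = 0.0223). In ENT1KO libraries Prf1 was 8.92% to 16.8% of Gzmb in TPM, and in WT libraries 12.6% to 14.6%.

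Gzma had 214, 362, 164 and 252 TPM in ENT1KO libraries, against 85.8, 96.2 and 163 TPM in WT libraries. The groups did not overlap, although ENT1KO replicate 14 and WT replicate 3 were nearly equal. The log2 difference was 1.10 (SE 0.30; limma-trend adjusted p = 0.0176). Gzmk, its neighbour on chromosome 13, had 87.8, 82.3, 45.03 and 214 TPM in ENT1KO libraries, against 30.4, 19.7 and 51.5 TPM in WT libraries. ENT1KO replicate 15 held the highest Gzmk and replicate 14 was below WT replicate 3. The Gzmk log2 difference was 1.51 (SE 0.52; limma-trend adjusted p = 0.0409). Gzmm was low throughout, with 4.69, 6.7, 5.53 and 7.21 TPM in ENT1KO libraries, against 1.81, 2.42 and 4.86 TPM in WT libraries. ENT1KO replicate 11 was just below WT replicate 3. Its log2 difference was 0.86 (SE 0.27; limma-trend adjusted p = 0.0308). In the authors' deposited table Gzma and Gzmk passed at log2 fold changes of 0.96 and 1.57 (adjusted p = 0.00842 and 0.00499), and Gzmm, at 0.89, did not (adjusted p = 0.0519).

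**Figure D1:**
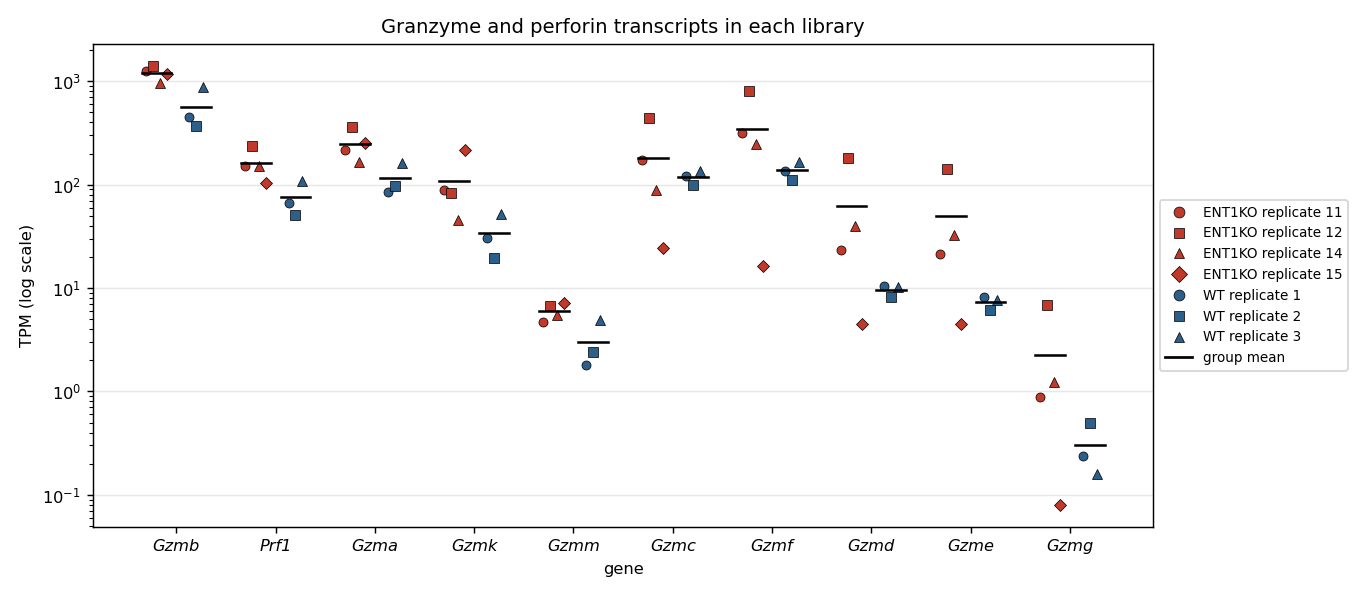
TPM of each granzyme gene and Prf1 in each library on a log axis, ENT1KO in red left of WT in blue, with a bar at the group mean. Gzmb, Prf1, Gzma, Gzmk and Gzmm were higher in ENT1KO, and for Gzmc to Gzmg the 4 ENT1KO libraries lie on both sides of the WT libraries.

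Of the 10 genes, 9 were tested, and each of these had at least 1.81 TPM in every library. Gzmg was not tested, because only 2 libraries reached 1 TPM. Gzma, Gzmb, Gzmk, Gzmm and Prf1 rose, none of the members fell, and the other 4 tested members did not pass, with a median log2 difference of 1.10 over the 9. Over all 13798 tested genes, 50.6% were called, 27.5% higher and 23.1% lower in ENT1KO, with a median of 0.15. On the authors' normalized counts that median was 0.0, and 42.9% of the calls were higher, against 54.4% on TPM. The TPM groups did not overlap, with ENT1KO higher, for Gzma and Gzmb among the 10 and for 30.3% of tested genes, and with ENT1KO lower for none of the 10 and for 24.9% of tested genes. The Gzmb call held without each library in turn, with limma adjusted p between 0.00162 and 0.0384. Without WT replicate 1 or without WT replicate 2, Gzmb was the one member called. Of all 13798 tested genes, 6093 and 4840 were called in those fits, against 6982 with every library. Gzmk lost its call without ENT1KO replicate 11 or 12 as well (limma adjusted p = 0.0811 and 0.0682). Prf1 lost its call also without ENT1KO replicate 11 (0.0502), and Gzmm also without ENT1KO replicate 12 or 15 (0.0732 and 0.0684).

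The 5 genes Gzmc to Gzmg showed another pattern. Among ENT1KO libraries they differed by more than an order of magnitude, while the WT libraries lay close together. Gzmf had 315, 801, 249 and 16.2 TPM in ENT1KO libraries, against 136, 112 and 166 TPM in WT libraries. Its highest ENT1KO value was 49.4 times the lowest, against 1.48 times among WT libraries. Gzmc had 174, 437, 88.8 and 24.4 TPM in ENT1KO libraries, against 121, 98.4 and 137 TPM in WT libraries. For Gzmc, 2 ENT1KO libraries were above all WT libraries and 2 were below all of them.

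Gzmd had 23.5, 182, 39.7 and 4.47 TPM in ENT1KO libraries, against 10.4, 8.23 and 10.3 TPM in WT libraries. Gzme followed it closely, with 21.2, 143, 32.7 and 4.48 TPM in ENT1KO libraries, against 8.12, 6.16 and 7.63 TPM in WT libraries. For each of these, 3 ENT1KO libraries were above and replicate 15 was below all WT libraries. Gzmg was near the limit of detection, with 0.89, 6.83, 1.22 and 0.08 TPM in ENT1KO libraries, against 0.24, 0.5 and 0.16 TPM in WT libraries. In normalized read counts, that is 9.15, 81.9, 15.3 and 1.96 in the same ENT1KO libraries and 2.98, 8.21 and 0.996 in the WT libraries. In TPM, ENT1KO replicate 12 was the highest and replicate 15 the lowest of all 7 libraries for each of the 5 genes. In normalized counts of Gzmg, WT replicate 3 was below ENT1KO replicate 15.

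**Figure D2:**
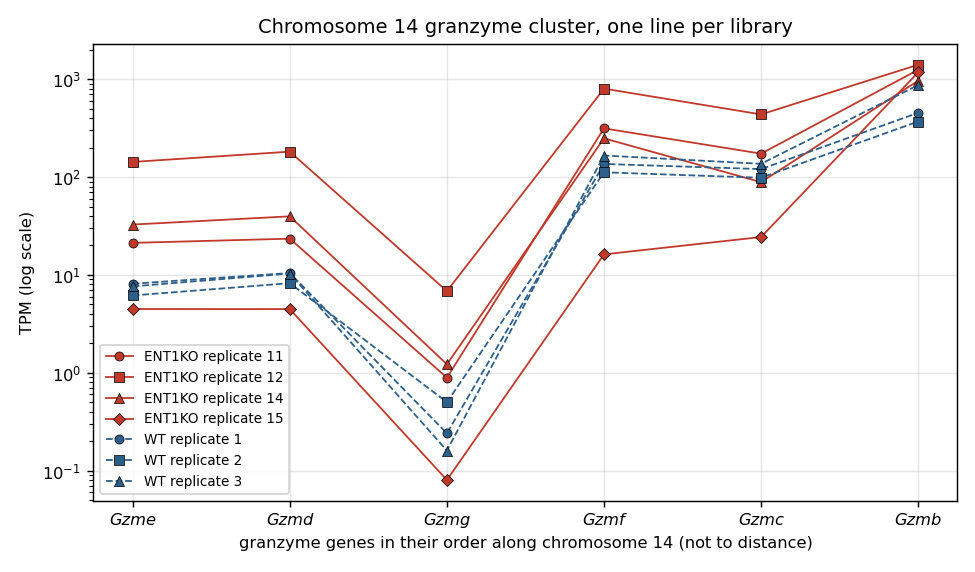
TPM on a log axis of the chromosome 14 granzyme genes, in their order along the chromosome, with 1 line per library (ENT1KO red and solid, WT blue and dashed). The lines of ENT1KO replicates 12 and 15 run at the top and bottom from Gzme to Gzmc and come together at Gzmb, where replicate 12 is at 1406 and replicate 15 at 1176 TPM.

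None of the 4 tested genes of this group passed between genotypes. The log2 differences were 1.75 for Gzme, 1.57 for Gzmd, 0.40 for Gzmf and -0.04 for Gzmc, with standard errors between 0.83 and 1.14 and limma-trend adjusted p between 0.15 and 0.967. Without ENT1KO replicate 15, Gzmd, Gzme and Gzmf passed, at log2 differences of 2.42, 2.53 and 1.54 (limma adjusted p = 0.0242, 0.0172 and 0.0218). The library left out there was the ENT1KO library below all WT libraries for these genes. Of all 13798 tested genes, 6232 were called in that fit. For Gzmd, Gzme and Gzmg the authors' deposited table lists log2 fold changes of 2.57, 2.59 and 2.74 (adjusted p = 0.0469, 0.0349 and 0.0449). There Gzmf and Gzmc did not pass (adjusted p = 0.39 and 0.712 in the authors' deposited table).

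Few tested genes spread as widely among ENT1KO libraries. The SD of log2(TPM + 1) over the 4 ENT1KO libraries was 2.38 for Gzmf, 2.09 for Gzmd, 1.94 for Gzme and 1.73 for Gzmc, and the median over all tested genes was 0.19. An SD at least as large was found in 0.145% of tested genes for Gzmf and in 0.442% for Gzmc. Over the 3 WT libraries the SDs of these 4 genes were 0.18 to 0.28, near the median of 0.24. Gzmb had an SD of 0.23 in ENT1KO and 0.64 in WT libraries. The 9 fibroblast and tumour markers also spread widely over the ENT1KO libraries, with SDs from 1.71 (Acta2) to 3.09 (Postn). These shares are a description, since the spread was looked at because it was large.

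Summed over Gzmc to Gzmg, transcript levels were 534, 1570, 411 and 49.6 TPM in ENT1KO libraries, against 276, 225 and 321 TPM in WT libraries. They made up 25.6%, 45.8%, 25.8% and 2.92% of the summed TPM of the 9 granzymes in those ENT1KO libraries, and 32.5%, 31.6% and 22.7% in the WT libraries. Relative to Gzmb they ran from 4.22% in ENT1KO replicate 15 to 112% in ENT1KO replicate 12, against 36.8% to 60.9% in WT libraries. Gzmk went the other way in replicate 15, where it was 18.2% of Gzmb, against 4.66% to 7.04% in the other ENT1KO libraries and 5.32% to 6.71% in WT libraries.

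Within ENT1KO, marker sums differed between the same libraries, and their part in this spread was not tested. In replicates 12 and 15 the fibroblast and tumour sum was 150.5 and 1.11 TPM, the macrophage sum 488 and 101 TPM, and the CD8 T cell sum 9996 and 8801 TPM. The sum of the 7 NK cell markers was 154, 198, 160 and 97.7 TPM in ENT1KO replicates 11, 12, 14 and 15, led by Klre1 and Klri2, and 129, 95.2 and 133 TPM in the WT libraries. Of the 7, none was called higher and 2 were called lower, Klra4 (log2 difference -3.23, limma-trend adjusted p = 0.00193) and Klra8 (-0.55, adjusted p = 0.0224). Ncr1, which defines NK cells, was at most 1.23 TPM in ENT1KO and 1.53 TPM in WT libraries. The 8 mast cell and basophil markers, led by Kit and Tpsb2, summed to 1.91 to 18.3 TPM in ENT1KO and 23.04 to 45.4 TPM in WT libraries. Replicate 14, with the highest fibroblast and macrophage sums in ENT1KO, was between replicates 12 and 15 for all 5 genes.

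Sequence similarity limits how far Gzmd, Gzme and Gzmg can be told apart. Between the longest coding transcripts (GENCODE, GRCm38), Gzmd and Gzme were 94.8% identical, Gzmd and Gzmg 90.5%, and Gzmb and Gzmd 72.0%. These are shares of aligned bases, with gaps not counted. By the same measure the granzymes were 62.4% (Gzma) to 68.4% (Gzmf) identical to Prf1. Stretches of 75 bases shared exactly with another member made up 5.73% of those in Gzmd, 4.75% in Gzme and 5.15% in Gzmg, and none of those in Gzmc, Gzmf or Gzmb. At 50 bases the shares were 21.5%, 19.1% and 15.2% for Gzmd, Gzme and Gzmg, and 7.36% and 4.14% for Gzmf and Gzmc. The sources used here state neither the read length nor how reads with several matches were treated, so separate values of Gzmd, Gzme and Gzmg are uncertain to that extent. Gzme was 78.5% to 100.2% of Gzmd in ENT1KO and 73.9% to 77.7% in WT libraries.

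Relative to T cell transcripts of the same library, none of the 10 genes separated the genotypes. Cd8a, the alpha chain of the CD8 coreceptor, was itself at 858 to 1304 TPM in ENT1KO and 309.8 to 684 TPM in WT libraries (log2 difference 1.12, limma-trend adjusted p = 0.00937). Cd3e, a signalling chain of the T cell receptor complex, averaged 619 ± 61.5 TPM in ENT1KO and 308 ± 132 TPM in WT libraries (SD, n = 4 and 3; log2 difference 1.09, limma-trend adjusted p = 0.0107). The pair kept a similar ratio, Cd3e being 54.4% to 69.9% of Cd8a in ENT1KO and 57.0% to 65.5% in WT libraries.

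Gzmb was 120%, 108%, 98.1% and 137% of Cd8a in ENT1KO libraries, against 89.2%, 119% and 127% in WT libraries. The means were 116% ± 16.8 in ENT1KO and 112% ± 20.2 in WT (SD, n = 4 and 3), a ratio of 1.03 (exact two-sided permutation p = 0.771). Prf1 was 14.6%, 18.1%, 15.4% and 12.2% of Cd8a in ENT1KO libraries, against 13.0%, 16.4% and 16.0% in WT libraries. For Prf1 the ratio of means was 0.996, and for Gzma and Gzmm it was 0.986 and 0.96. With Cd3e in place of Cd8a the ratios of means were 1.05 for Gzmb, 1.03 for Prf1 and 0.97 for Gzmm, and Gzma averaged 39.5% of Cd3e in ENT1KO and 39.3% in WT. For these 4 genes the ENT1KO and WT values overlapped with both references.

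Gzmk was 8.42%, 6.31%, 4.58% and 25.0% of Cd8a in ENT1KO libraries, against 5.98%, 6.35% and 7.53% in WT libraries. Its ratio of means, 1.67, came with ENT1KO replicate 15 far above, replicate 11 above, replicate 12 within and replicate 14 below the WT range. Gzmc to Gzmg kept their wide ENT1KO range on this scale. Gzmf ran from 1.89% to 61.4% of Cd8a in ENT1KO and from 24.3% to 36.1% in WT libraries, and Gzmd from 0.521% to 13.9% in ENT1KO and from 1.51% to 2.66% in WT libraries. The ratios of means were 0.616 for Gzmc, 1.02 for Gzmf, 2.40 for Gzmg, 2.50 for Gzmd and 2.68 for Gzme. Without ENT1KO replicate 12 they were 0.378 for Gzmc, 0.658 for Gzmf, 0.943 for Gzmg, 1.09 for Gzmd and 1.25 for Gzme, so those of Gzmf and Gzmg changed direction. Without ENT1KO replicate 15 the Gzmk ratio was 0.972, and without WT replicate 2 the Gzmg ratio was 5.26.

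**Figure D3:**
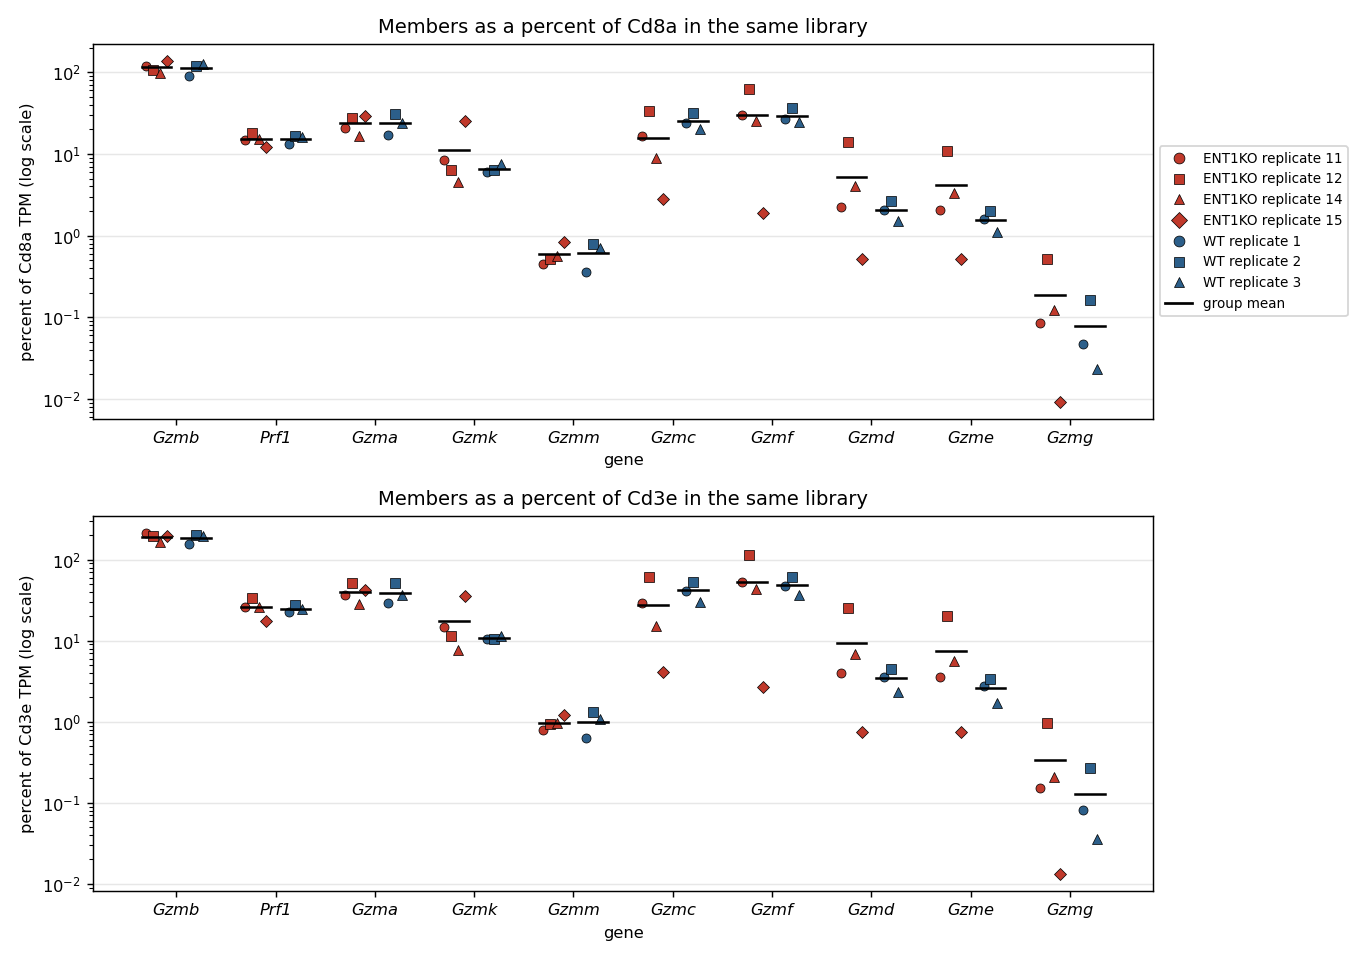
Each gene as a percent of Cd8a (top) and of Cd3e (bottom) in the same library, on log axes, ENT1KO in red left of WT in blue, with a bar at the group mean. All 10 genes overlap between genotypes in both panels, and Gzmc to Gzmg keep the spread of ENT1KO replicates 12 and 15.

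Over the 20 ratios (10 genes with 2 references), the exact two-sided permutation p ran from 0.257 to 1, and the Benjamini-Hochberg adjusted p was 1 for each. Of 13797 tested genes, 59.1% were lower and 0.515% higher in ENT1KO relative to Cd8a without overlap, and relative to Cd3e 56.7% were lower and 0.703% higher. A p of this size does not show equal levels, since 4 against 3 libraries leave wide error for Gzmc to Gzmg and Gzmk. Leaving out 1 library let the groups separate for 1 gene in 5 instances. Without ENT1KO replicate 12, Gzmc was lower relative to Cd8a and to Cd3e. Without ENT1KO replicate 15, Gzme was higher relative to both, and without ENT1KO replicate 14, Gzmk was higher relative to Cd3e. In each instance the library left out was the ENT1KO library that had made the groups overlap. The share of all tested genes that separate in this way was not computed, so these instances do not set the genes apart.

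Other genes of the granule pathway were read from lists of the granule machinery, of granzyme activation and inhibition, and of regulators. In the granule machinery list, 9 of 15 tested genes rose and 3 fell, with a median log2 difference of 0.63, beside 27.5% higher, 23.1% lower and a median of 0.15 over all tested genes. Serglycin, encoded by Srgn, is the proteoglycan that packs granzymes, and it was at 1096 to 1299 TPM in ENT1KO and 689.6 to 1013 TPM in WT libraries (log2 difference 0.52, limma-trend adjusted p = 0.0167, and 0.051 without WT replicate 2). Nkg7, a granule membrane protein, was at 1023 to 1372 TPM in ENT1KO and 347 to 861 TPM in WT libraries (log2 difference 1.08, adjusted p = 0.0135). Unc13d, Rab27a and Stxbp2, whose products bring granules to the membrane and fuse them with it, rose by log2 differences of 1.09, 0.87 and 0.84. Lyst, a regulator of lysosome size, rose to 39.0 ± 7.46 TPM in ENT1KO, against 15.7 ± 5.46 TPM in WT (SD, n = 4 and 3). The 3 genes that fell encode lysosomal membrane proteins of many cell types. Lamp1 was at 106 to 131 TPM in ENT1KO and 238 to 359 TPM in WT libraries (log2 difference -1.32, adjusted p = 0.00126). Lamp2 and Cd63 had log2 differences of -1.56 and -4.69. The macrophage and fibroblast marker sums were also lower in ENT1KO, and their part in these differences was not tested.

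In the activation and inhibition list, 6 of 10 genes rose and 4 fell, with a median log2 difference of 0.86, beside the same 27.5% and 23.1% over all tested genes. Cathepsin C, encoded by Ctsc, removes the propeptide of granzymes. Ctsc was lower in ENT1KO, at 99.5 to 173 TPM in ENT1KO and 291 to 421 TPM in WT libraries (log2 difference -1.34, limma-trend adjusted p = 0.00199). The macrophage marker sum was also lower in ENT1KO, and its part in this difference was not tested. Ctsh and Ctsl, cathepsins that macrophages express strongly, had log2 differences of -2.35 and -4.04. Serpinb6a, a broadly expressed serpin, also fell (log2 difference -1.14). Cystatin F, encoded by Cst7, inhibits cathepsin C, and it was at 174 to 279.8 TPM in ENT1KO and 64.8 to 145 TPM in WT libraries (log2 difference 1.12, adjusted p = 0.0108). Serpinb9, an intracellular inhibitor of granzyme B, had 177, 217, 156 and 111 TPM in ENT1KO libraries, against 70.7, 53.8 and 127 TPM in WT libraries. Its log2 difference was 1.02 (limma-trend adjusted p = 0.0278), and the 4 ENT1KO libraries stood in the same order as for Prf1. Of this list 6 genes passed without ENT1KO replicate 12, and likewise without WT replicate 1 or 2. Serpinb9 was not called in these (limma adjusted p = 0.0648, 0.0800 and 0.109) or without ENT1KO replicate 11 (0.0673).

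Among 18 regulators of granzyme expression, 15 rose and 1 fell, with a median log2 difference of 0.82, against 27.5% higher and 23.1% lower over all tested genes. The list was not split by whether a gene raises or restrains granzyme expression, so these counts give no common direction of regulation. Cd8a and Cd3e differed by 1.12 and 1.09 in the same libraries. Eomes and Tbx21, the T-box factors that drive Gzmb and Prf1 in CD8 T cells, were at 30.02 to 56.1 and 83.4 to 122 TPM in ENT1KO and at 9.3 to 23.0 and 32.5 to 82.9 TPM in WT libraries (log2 differences 1.29 and 0.90, limma-trend adjusted p = 0.0116 and 0.0313). Runx3, a RUNX factor of the CD8 lineage, was at 78.1 to 94.8 TPM in ENT1KO and 35.7 to 57.4 TPM in WT libraries (log2 difference 0.77, adjusted p = 0.00821). Notch1 and Bach2 had the smallest p of the list, at log2 differences of 1.08 and 1.25. Tcf7 had the largest log2 difference of the list, at 1.39 (limma-trend adjusted p = 0.00879). Zeb2, a transcriptional repressor that promotes terminal effector differentiation and that macrophages also express, was the gene that fell (log2 difference -0.77, adjusted p = 0.0348). Prdm1 (log2 difference -0.12) and Il2rb (0.70) did not pass. Without WT replicate 2 the list had 10 calls, and Tbx21 and Zeb2 were not among them (adjusted p = 0.0888 and 0.117).

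**Figure D4:**
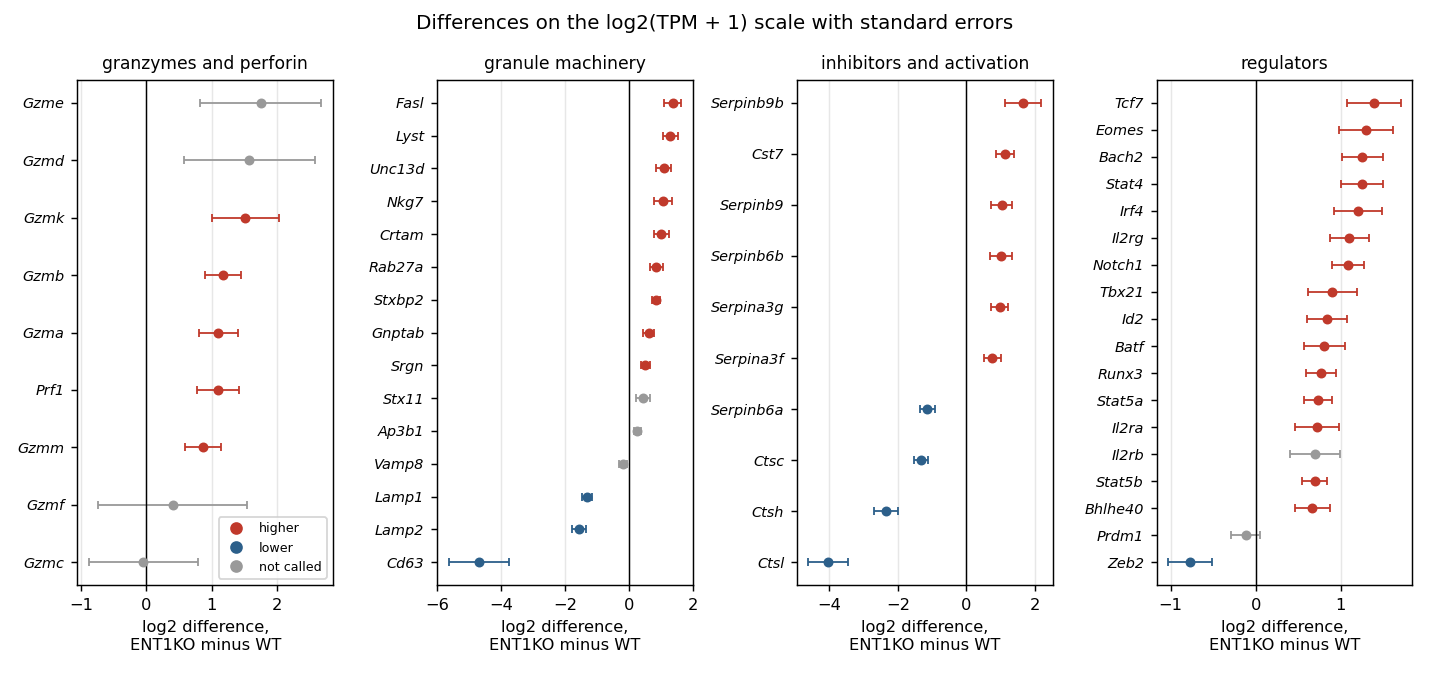
Differences in log2(TPM + 1), ENT1KO minus WT, with standard errors, for the tested granzyme and perforin genes and for the 3 related lists; the axes of the 4 panels differ in range. Red points passed as higher and blue as lower in ENT1KO, and grey points, among them Gzme, Gzmd, Gzmf and Gzmc, did not pass.

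Some genes of these lists separated the genotypes relative to Cd8a. In the granule machinery list 8 of 15 were lower without overlap, among them Srgn, Lamp1, Lamp2 and Cd63, and Lyst was higher. Relative to Cd3e 7 were lower, Lyst overlapped and Fasl, the ligand of the death receptor Fas, was higher. In the activation and inhibition list the 4 that fell were lower and the 6 that rose overlapped, with either reference. Among regulators 6 of 18 were lower, Tbx21 and Il2rb among them, and none was higher. Relative to Cd3e 3 of 18 were lower, namely Prdm1, Zeb2 and Il2rb, and Tbx21 overlapped. Over all tested genes, 59.1% were lower and 0.515% higher without overlap relative to Cd8a. Relative to Cd3e, 56.7% were lower and 0.703% higher. In each list the share of lower genes was below that over all tested genes, so these counts do not set the lists apart.

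The genes whose profiles over the 7 libraries lay nearest to Gzmb, by the root mean square difference of centred log2(TPM + 1) values among 10270 genes of at least 5 TPM, included Shisa5, Cd96 and Trbc2, at 0.09 to 0.12. Nearest to Prf1 were Pik3r1, Serpinb9, Serpinb6b and Trav9-2, at 0.10 to 0.13. Nearest to Gzmd was Gzme, at 0.13, and next came Serpine2 at 0.69. Serpine2 had 11.3, 54.1, 12.2 and 7.04 TPM in ENT1KO libraries, against 5.43, 4.38 and 4.98 TPM in WT libraries. The neighbours of Gzmd were looked up after its values had been seen.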

How the data were processed

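7 RNA-seq libraries were analysed, 4 ENT1KO and 3 WT, grouped by sample title. The authors deposited TPM per gene and a comparison table holding a signal (read counts divided by 1 size factor per sample), log2 fold changes with standard errors, the test's statistic (used nowhere here) as a score, and adjusted and raw p-values. Per the submitters' processing notes, the tools were STAR 2.7.1a, Trimmomatic 0.35 and 0.38, DESeq, DESeq2 1.30.1 and RSEM, and the build GRCm39, with no roles stated. The file name calls the TPM stranded, and no source used here gives the annotation release. Each normalized count was a whole multiple of its column's smallest value (100% within a tolerance of 0.01), which gave the depths. The steps of WT replicates 1 and 3 lie too near 1 to prove whole reads, so no count model was run.

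The filter kept the 13798 genes reaching 1 TPM in 3 or more libraries. They were tested with limma-trend and robust empirical Bayes on log2(TPM + 1), genotype being the only term, with Benjamini-Hochberg adjustment over all of them and a threshold of 0.05 (limma 3.58.1, R 4.3.3). Changes of low genes come out too small on this scale. Ratios to Cd8a and Cd3e used plain TPM and exact two-sided permutation tests over 35 splits (smallest p 0.0286). Called ratios are those whose groups do not overlap. The scripts were tested on simulated data. Sequences were compared with Biopython 1.88, and figures drawn with matplotlib 3.10.9.

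The members, lists and tests were chosen with earlier results of these data known. Named genes are the 10 members, Slc29a1, Cd8a, Cd3e, the 2 smallest p and the first 3 genes of each related list, the 4 nearest profiles to Gzmb and Prf1, and the 2 most abundant markers of lists. Other list genes were named after their values were seen. Of 16 granule machinery genes 15 matched the table, as did all 10 and all 18 of the other lists. The other marker lists gave sums of 15.05 to 37.8 TPM in ENT1KO and 14.6 to 24.4 TPM in WT for CD4 and regulatory T cells (Ikzf2, Cd40lg the most abundant, Cd40lg called higher and Cd4 and Foxp3 called lower), 1.73 to 3 TPM in ENT1KO and 0.61 to 1.86 TPM in WT for gamma-delta T cells (Trdc alone of 3 matched), 33.7 to 44.8 TPM in ENT1KO and 19.6 to 38.9 TPM in WT for plasmacytoid dendritic cells (Pacsin1, Siglech), and 1.86 to 12.4 TPM in ENT1KO and 72.2 to 84.4 TPM in WT for neutrophils (S100a9, S100a8). Some genes that the rule names are not reported here.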

Additional observations from a re-analysis of the deposited data

Results flagged for a closer look

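Gzmg in ENT1KO replicate 12, at 6.83 TPM, lay apart from the other ENT1KO libraries, which ran from 0.08 to 1.22 TPM. It was the 1 value flagged among 30 checks of the 4 ENT1KO libraries (TPM and both ratios of 10 genes), and chance flags about 1 in 20 groups. The WT group of 3 was not checked.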

How the results depend on the processing

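Settings were pseudocounts of 0.1 and 5, a filter of any value above 0 in 1 sample or of 5 TPM in 3, quantile normalization, the authors' normalized counts, other T cell references, and leaving out each library. No paired analysis was possible because the ENT1KO and WT titles share no replicate number. Of the 10 members, 5 were called. Without the filter 3 members passed, where 6963 of all 26819 tested genes were called. On normalized counts 3 members passed, where 6753 of all 13798 tested genes were called. Leaving out 1 library gave 1 to 7 members called. Over all tested genes, leaving out 1 library gave 4840 to 6853 calls, against 6982 in full. The activation and inhibition list (10 calls) had 6 without the filter and 6 to 10 with 1 library left out, and the regulators (16 calls) 10 to 17. The number of members not overlapping relative to Cd8a, 0 in full, was 0 to 1 with 1 library left out, and 0 to 1 relative to Cd3e. With 1 library left out, the share over all tested genes was not computed. Gzmc, at -0.04, changed sign without ENT1KO replicate 14 (0.07), ENT1KO replicate 15 (0.68) and WT replicate 3 (0.06), and Gzmf, at 0.40, without ENT1KO replicate 12 (-0.31). With 1 library left out Gzmc ran from -0.69 to 0.68 and Gzmf from -0.31 to 1.54. The cause was not tested. On normalized counts Gzmk and Gzmm lost their calls (limma adjusted p = 0.0598 and 0.0565), and after quantile normalization Gzmk did (0.0508). Of all 6982 calls 54.4% were higher in ENT1KO, against 42.9% on normalized counts, where the median of all genes was 0.0 in place of 0.15, and 44.8% without the filter. Depth limits Gzmg most, with 1 to 8 normalized reads per WT library.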

Other observations

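Gzmn, the cluster gene between Gzmg and Gzmf that was not among the members, was listed at 0.15 TPM in ENT1KO replicate 12 and at 0 in the other 6 libraries.

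Some T cell receptor V segments ranked among the nearest profiles to granzymes that varied within ENT1KO, although not all of them lay close. Trbv31, among the 4 nearest to Gzmd, had 27.2, 199.7, 20.8 and 19.4 TPM in ENT1KO libraries, against 7.7, 6.76 and 16.5 TPM in WT libraries. Its root mean square difference from Gzmd was 0.83, against 0.13 for Gzme. In ENT1KO replicate 15, Trbv31 was above and Gzmd below all WT libraries. Trbv19, nearest to Gzmk, had 59.3, 58.0, 43.0 and 134 TPM in ENT1KO libraries, against 22.04, 10.4 and 49.8 TPM in WT libraries. Trbv29, among the 3 nearest to Gzmk, had 127, 184, 79.2 and 321 TPM in ENT1KO libraries and 76.4, 24.2 and 71.8 TPM in the WT libraries. These segments were looked at after the granzyme values had been seen, they rank among 10270 genes, and no test was made.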
